A study of Mus musculus with 6 samples.

Results

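The metabotropic glutamate receptors examined here were Grm2 to Grm8, chosen by name: every array probe whose gene name was 1 of these 7 symbols was taken, which gave 17 probes of 56605 and 7 gene names of 37074. A probe here is a 60-base oligonucleotide, each of the 17 printed as 1 spot. Of the 17 probes, 11 were kept, meaning that every array of the vehicle group, of the GSK-J4 group or of both (3 each) read them as well above the local background, as was so for 34443 probes of the whole array. They stood for 6 of the 7 genes, and no Grm6 probe was kept. The probe for Grm2 was higher in the GSK-J4 group by 0.53 ± 0.09 (log2, SE), and 0 of the other 10 kept probes passed an adjusted p of 0.05.

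The data were 6 one-colour Agilent arrays of RNA labelled as hypothalamus from male C57BL/6J mice with diet-induced obesity (DIO), 3 from mice given vehicle (0 mg/kg) and 3 from mice given GSK-J4 at 30 mg/kg, all on a diet with 60 kcal% fat. GSK-J4 blocks the Kdm6 demethylases, enzymes that remove methyl groups from lysine 27 of histone H3, and the series asks what it does to hypothalamic expression in obese mice. According to the methods, the mice were started on this diet at 6 weeks of age and kept on it for 16 weeks. The design text places the arrays at day 4 of exposure and names a different mouse for each experiment, whereas the methods describe a longer course of treatment without giving the day of the arrays.

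Metabotropic glutamate receptors are G protein-coupled receptors that respond to glutamate more slowly than the ion-channel receptors and tune how excitable neurons are and how much transmitter they release. Group I, to which Grm5 belongs, couples to Gq and phospholipase C and lies mostly behind the synapse. Group II (Grm2 and Grm3) and group III (Grm4, Grm6, Grm7 and Grm8) couple to Gi/o and lower cAMP, and many act as brakes on release at the presynaptic terminal. In the hypothalamus, glutamate is the main excitatory transmitter of the circuits for feeding and energy balance.

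The sequences show which bases some of these probes read, though not their place within a transcript. This matters for Grm8, where both probes overlap, and for Grm5, where the probes read different records. The probe of Grm2 that carried the only call, A_55_P2171348, lies at chr9:106547222-106547281 on the minus strand (build mm9, as in the files) and reads record NM_001160353, and its first 30 bases are given. The probes of Grm4 and Grm5 that are given lie at chr17:27571527-27571586 (minus strand) and chr7:94952358-94952417 (plus strand). The first Grm8 probe spans a splice junction within chr6:27225645-27235744 on the minus strand, and its capitals mark the 27 bases that it shares with the second Grm8 probe (chr6:27225612-27225671). Exon and UTR annotation on mm9 was not used here.
Grm2 A_55_P2171348, first 30 bases: aggaagttggctggagccttgcaataacac
Grm4 A_55_P2073682: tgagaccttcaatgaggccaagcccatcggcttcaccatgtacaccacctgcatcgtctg
Grm5 A_66_P106601: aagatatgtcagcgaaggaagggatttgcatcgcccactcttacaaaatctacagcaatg
Grm8 A_55_P2742023: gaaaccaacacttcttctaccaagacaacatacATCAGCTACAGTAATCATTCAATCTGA

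Several features of the arrays bear on every value. Both groups lay on separate slides, scanned separately, so slide and treatment cannot be told apart, and the 75th percentile of spot intensity was 787 to 916 on the vehicle arrays against 406 to 461 on the GSK-J4 arrays, with 62.8% to 63.6% against 57.7% to 58.7% of probes well above background. The fold change followed the GC content of the probe, from a median of -0.30 (log2) for 598 kept probes below 35% GC to 0.23 for 6224 probes at 50% GC or more. Of 10 hypothalamus markers, 5 had a kept probe: Pomc, Hcrt, Oxt and Lhx6 were well above background on 6 of 6 arrays and Agrp on 5. Nkx2-1 and Sim1, transcription factors of hypothalamic development, were well above background on 0 of 6 arrays, and the neuropeptide genes Avp, Trh and Pmch were so on 3 of 6 at most. All 5 cortex and hippocampus markers had a kept probe, and Tbr1, Neurod2 and Neurod6 were well above background on 6 of 6 arrays. The tissue is therefore named here only as the labels name it. The summed level of 6 measured choroid plexus and ependyma markers was 16.75 (log2) on vehicle array 1 against 11.63 and 11.71 on the other vehicle arrays, and 11.51 to 13.60 on the GSK-J4 arrays. The Grm2 difference, the pathway count and the counts over all probes are therefore also given without vehicle array 1. Neuron (8 of 8), astrocyte (7 of 7), oligodendrocyte (6 of 6) and microglia (6 of 6) markers were all measured. By the brightest probe of each of 64 measured marker genes, over all lists of tissues and cell types, 4 were higher and 2 lower at limma's adjusted p of 0.05. Of all 22117 genes, 8.6% were called higher and 7.56% lower in the same way. Higher were Pomc (0.85), the oligodendrocyte precursor marker Cspg4 (0.52), the thalamus marker Tnnt1 (0.66) and the cortex marker Emx1 (0.53). Lower were the neuron marker Map2 (-0.33) and the cortex marker Neurod6 (-0.47). Of the 7 kept Map2 probes, however, 1 was called higher and 3 lower. By any kept probe, 1 of the 8 neuron markers had one called higher and 3 had one called lower. The share of all genes with any probe called was not computed, so these counts have no background. The part of these markers in the receptor values was not tested.

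Across the 11 kept probes, 6 had a positive and 5 a negative difference between GSK-J4 and vehicle, with a median of 0.03 (log2) against 0.02 over all 34443 kept probes. By limma with Benjamini-Hochberg adjustment over all kept probes, 1 of 11 (9.09%) was higher and 0 were lower, where 8.39% of all kept probes were called higher and 8.42% lower. At an unadjusted p of 0.05, limma called 1 probe higher and 1 lower, against 19.5% and 17% of all kept probes. The methods' t-test called 1 higher and 0 lower, against 15% and 12%. At the methods' fold of 1.5 with an unadjusted limma p of 0.05, 0 were higher and 0 lower. Of all kept probes, 4.79% were higher and 7.86% lower by these thresholds. With the p of the methods' t-test in its place, 0 were higher and 0 lower, against 1139 and 1799 of all 34443 kept probes. The 3 vehicle and 3 GSK-J4 values did not overlap for 3 of 11 probes (27.3%), 1 higher and 2 lower, against 45.6% of all kept probes. One of the lower probes, Grm7 A_55_P2941489, was kept only through the vehicle group, so that its direction was set by the filter. Among the 10 probes well above background on all 6 arrays, 1 lay higher and 1 lower without overlap (20%), against 46.6% of the 30940 such probes of the array. With 11 probes, some of the same gene, limma's adjusted counts of 1 higher and 0 lower lay near the shares of all kept probes. The share without overlap (27.3% against 45.6%) rested on 3 probes, and whether it differs from the background was not tested.

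**Figure D1:**
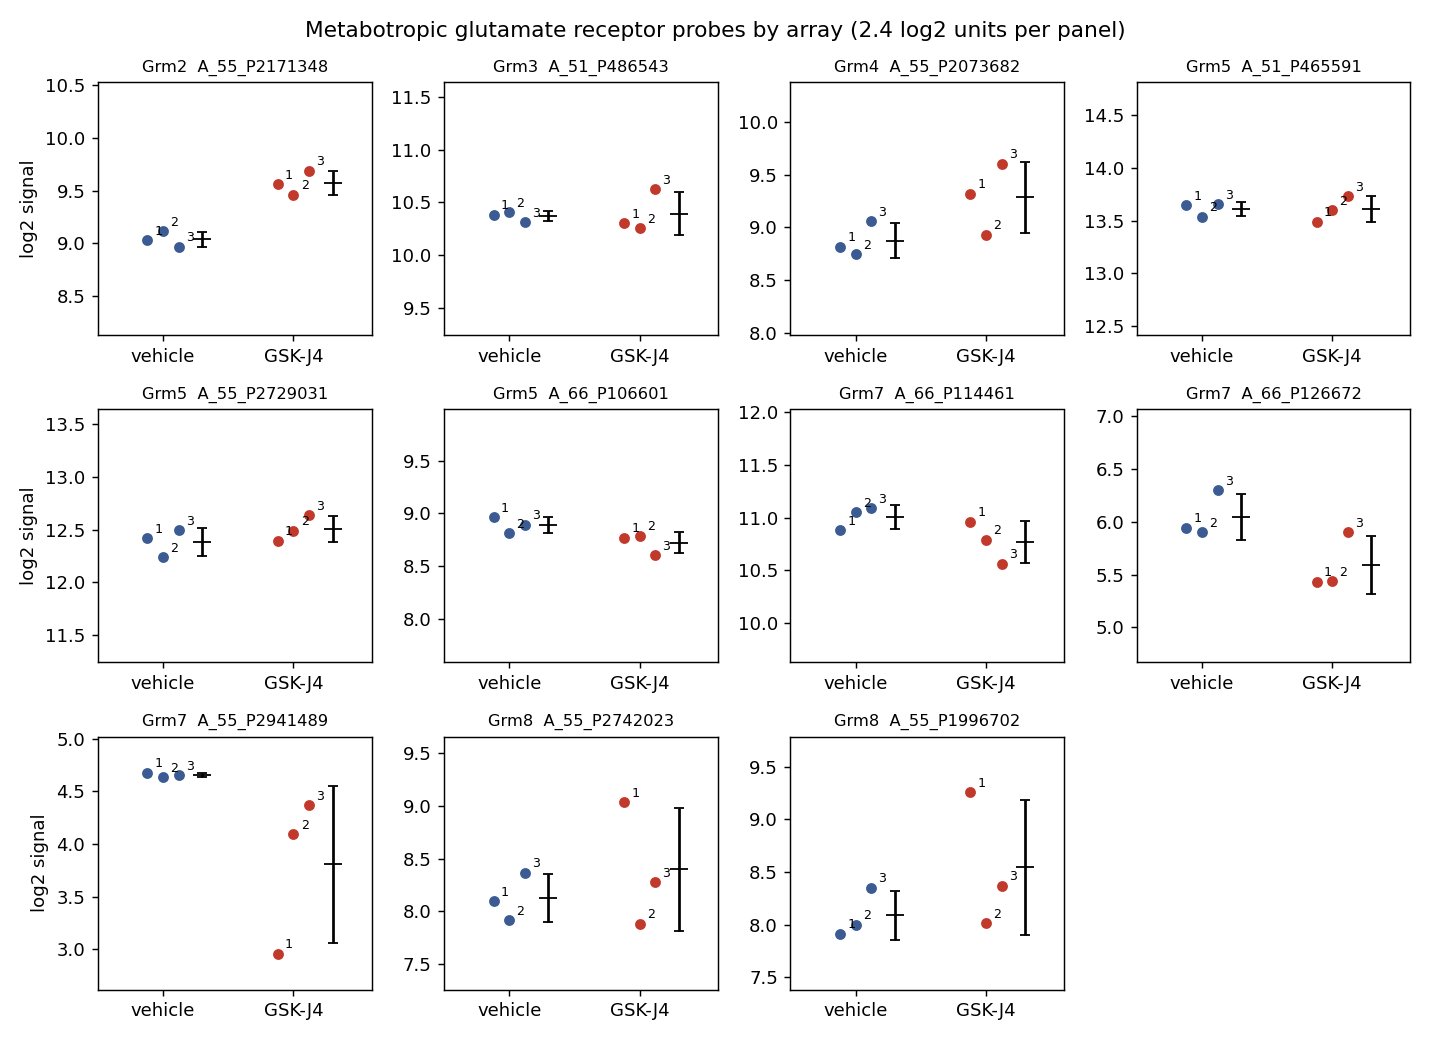
Log2 signal (vertical axis) of the 11 kept receptor probes on each vehicle (blue) and GSK-J4 (red) array, with replicate numbers beside the points and the group mean ± SD (n = 3) in black. Each panel spans the same range, so distances can be compared between panels but levels of different probes cannot. The Grm2 points of both groups lie apart, and GSK-J4 array 1 stands high in both Grm8 panels.

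Grm5, the main group I receptor of forebrain neurons and a partner of the Homer scaffolds, was read by 3 probes, none of which passed the adjusted test. The probe A_51_P465591 (record NM_001143834, chr7:95280099-95280158) gave log2 signals of 13.65, 13.54 and 13.66 in vehicle and 13.49, 13.60 and 13.73 in GSK-J4. These groups overlapped throughout, and the difference was -0.01 with a 95% interval of -0.23 to 0.22 (limma adjusted p = 0.97). The probe A_55_P2729031, which spans a splice junction of record XM_011241643, gave 12.42, 12.24 and 12.49 in vehicle and 12.40, 12.49 and 12.64 in GSK-J4. Its groups also overlapped, with a difference of 0.12 (limma adjusted p = 0.43). With the intensities scaled to the 75th percentile in place of quantile normalization, these differences were 0.27 and 0.30.

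The probe of Grm5 printed above, A_66_P106601 (record NM_001081414), gave 8.97, 8.81 and 8.89 in vehicle and 8.77, 8.79 and 8.61 in GSK-J4. Here every GSK-J4 value lay under every vehicle value, though closely, and the difference was -0.17 ± 0.09 (SE, limma adjusted p = 0.22, exact two-sided permutation p = 0.1). The smallest p that 3 against 3 arrays can give in that permutation test is 0.1. The 3 Grm5 probes thus had differences of both signs, all with 95% intervals that lay within 1.5-fold.

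Grm2, a group II autoreceptor at the edge of glutamatergic terminals, was the only receptor in the list to pass the adjusted test. A_55_P2171348 gave 9.03, 9.11 and 8.97 in vehicle and 9.56, 9.46 and 9.69 in GSK-J4. All 3 GSK-J4 arrays were above all 3 vehicle arrays, and the gap between the groups exceeded the spread within either. The probe rose by 0.53 ± 0.09 (log2, SE, 1.45-fold, 95% interval 0.31 to 0.75, limma adjusted p = 0.023, exact permutation p = 0.1). In tissue RNA, more RNA per cell and more cells that carry it cannot be told apart.

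The GC content of this Grm2 probe was 55%, and the 2617 kept probes with the same GC content had a median difference of 0.24, of which 84.3% lay below that of Grm2. After a correction for the trend with GC content, the difference of Grm2 was 0.28 (limma adjusted p = 0.081). Without vehicle array 1, high in choroid plexus markers, it was 0.53 (limma adjusted p = 0.071). The call was also lost without vehicle array 2 (0.57, adjusted p = 0.073), vehicle array 3 (0.50, adjusted p = 0.084) or GSK-J4 array 1 (0.54, adjusted p = 0.053), while the direction remained in each case. The second Grm2 probe, A_51_P414219, reads record AK015353 from the opposite strand (chr9:106545189-106545248) and was well above background on 0 of 6 arrays, so that it gave no second reading.

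**Figure D2:**
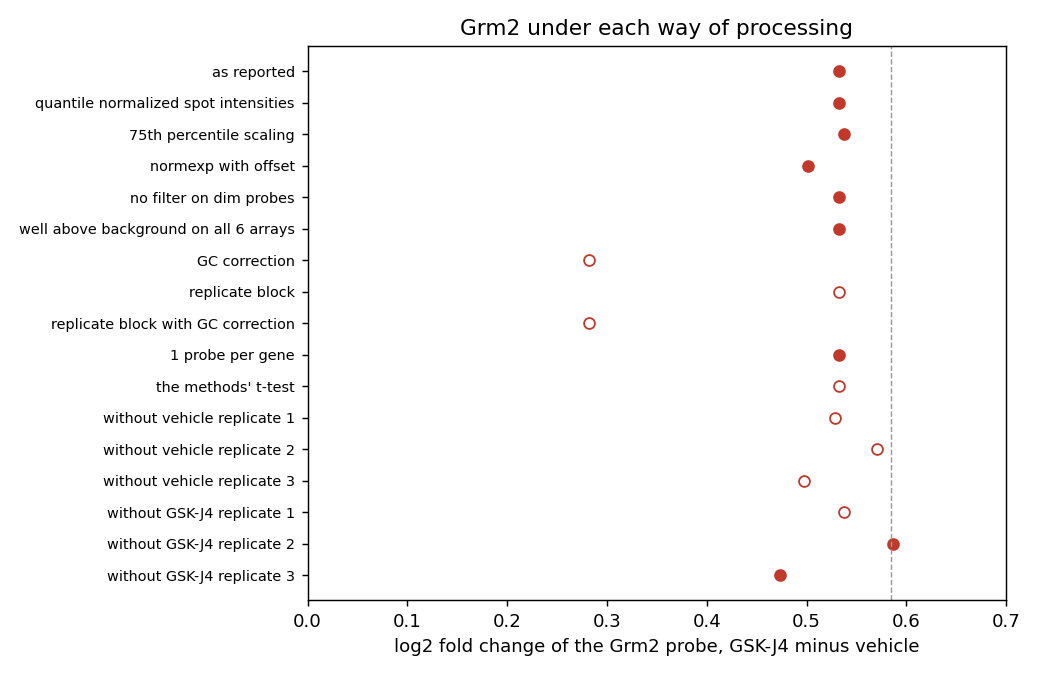
Log2 fold change of the Grm2 probe (horizontal axis) as reported and under each of 16 alternatives (vertical axis), filled where the adjusted p is 0.05 or less and open otherwise, with a dashed line at 1.5-fold. All 17 values are above 0, between 0.28 and 0.59, and 8 of the 16 alternatives keep the call.

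Grm3, the group II receptor that astrocytes also carry, did not differ beyond the spread between arrays. A_51_P486543 (record NM_181850, chr5:9485369-9485428) gave 10.38, 10.41 and 10.31 in vehicle and 10.30, 10.25 and 10.62 in GSK-J4, with 2 GSK-J4 arrays below and 1 above all vehicle arrays. The difference was 0.03 ± 0.12 (SE, limma adjusted p = 0.89) with a 95% interval of -0.26 to 0.31. The 2 group II receptors thus had their differences at separate values, with Grm2 at 0.53 and Grm3 at 0.03, read by probes of 55% and 35% GC, and the difference between them was not tested.

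Grm4, a presynaptic group III receptor best known from cerebellar and striatal terminals, had 1 kept probe. A_55_P2073682 (record NM_001013385) gave 8.82, 8.75 and 9.06 in vehicle and 9.32, 8.93 and 9.60 in GSK-J4. The groups overlapped through GSK-J4 array 2, which lay below vehicle array 3. The difference of 0.41 ± 0.19 (SE) did not pass the test (limma adjusted p = 0.18, 95% interval -0.06 to 0.88), and with the GC correction it was 0.16. The 5 measured striatum markers had summed levels of 12.66 to 13.31 in vehicle and 12.76 to 13.14 in GSK-J4. The second Grm4 probe, A_55_P2930341, was well above background on 0 of 6 arrays.

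Grm6, the group III receptor of retinal ON bipolar cells, was not detectable above background. Its 3 probes (A_66_P111887, A_51_P224938 and A_55_P1990623) read between 1.84 and 2.48 on the log2 scale and were well above background on 0 of 6 arrays. The lowest probe that was well above background read 3.79 to 3.90 on the vehicle arrays and 4.39 to 4.64 on the GSK-J4 arrays. Among the genes of the Grm6 synaptic complex, Lrit3 was well above background on 0 arrays, Gpr179 on 1 and Nyx on 4, while the cation channel gene Trpm1 was so on 6 for at least 1 of its 8 probes. Among retinal markers, Vsx1 and Isl1 were well above background on 0 of 6 arrays and Rcvrn on 6.

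Grm7, a group III receptor that sits in the active zone of many terminals and binds Pick1, was read by 4 probes from different records. A_66_P114461 (record NM_177328, chr6:111517083-111517142) gave 10.88, 11.05 and 11.09 in vehicle and 10.96, 10.79 and 10.56 in GSK-J4. The groups overlapped through GSK-J4 array 1, and the difference was -0.23 (limma adjusted p = 0.23, 95% interval -0.54 to 0.08). A_66_P126672 (ENSMUST00000174018, chr6:111446901-111446960) gave 5.95, 5.90 and 6.30 in vehicle and 5.43, 5.44 and 5.90 in GSK-J4. GSK-J4 array 3 equalled vehicle array 2 to 2 decimals, and the difference of -0.46 ± 0.18 (SE) had an unadjusted limma p of 0.043 and an adjusted p of 0.12.

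The third Grm7 probe, A_55_P2941489, reads a noncoding record (XR_868841) and has no position in the files. It was well above background on 3 of 3 vehicle arrays (4.68, 4.63 and 4.65) and on 0 of 3 GSK-J4 arrays (2.96, 4.09 and 4.37). The GSK-J4 values lay below all vehicle values, but they were also below the lowest detected probe of their own arrays. No fold can therefore be read from this probe. With those lowest detected levels in place of the GSK-J4 values, the group means lay 1.11-fold apart. That figure carries no error and does not establish a decrease. The difference did not pass the test (limma adjusted p = 0.15, 95% interval -1.74 to 0.05). The probe was kept only through the vehicle group, which fixed its direction, and with normexp background correction the difference was -0.14 (adjusted p = 0.32). The fourth, A_66_P138101, was well above background on 0 of 6 arrays. The 2 Grm7 probes measured on all 6 arrays had GC contents of 35% and 36.7%, where the medians over kept probes of the same GC content were -0.15 and -0.08.

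Grm8, a group III autoreceptor with high affinity for glutamate, was read by 2 overlapping probes. A_55_P2742023 gave 8.10, 7.92 and 8.37 in vehicle and 9.03, 7.88 and 8.28 in GSK-J4. A_55_P1996702 (record NM_008174) gave 7.91, 8.002 and 8.35 in vehicle and 9.26, 8.01 and 8.37 in GSK-J4. GSK-J4 array 1 was the highest array on both probes, and the other GSK-J4 arrays lay within or close to the vehicle range.

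The Grm8 differences were 0.27 (limma adjusted p = 0.56, 95% interval -0.48 to 1.03) and 0.46 (limma adjusted p = 0.36, 95% interval -0.36 to 1.27). Without GSK-J4 array 1 they were -0.05 and 0.10. As both probes share 27 bases and the RNA of the same arrays, they are not independent readings of Grm8.

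**Figure D3:**
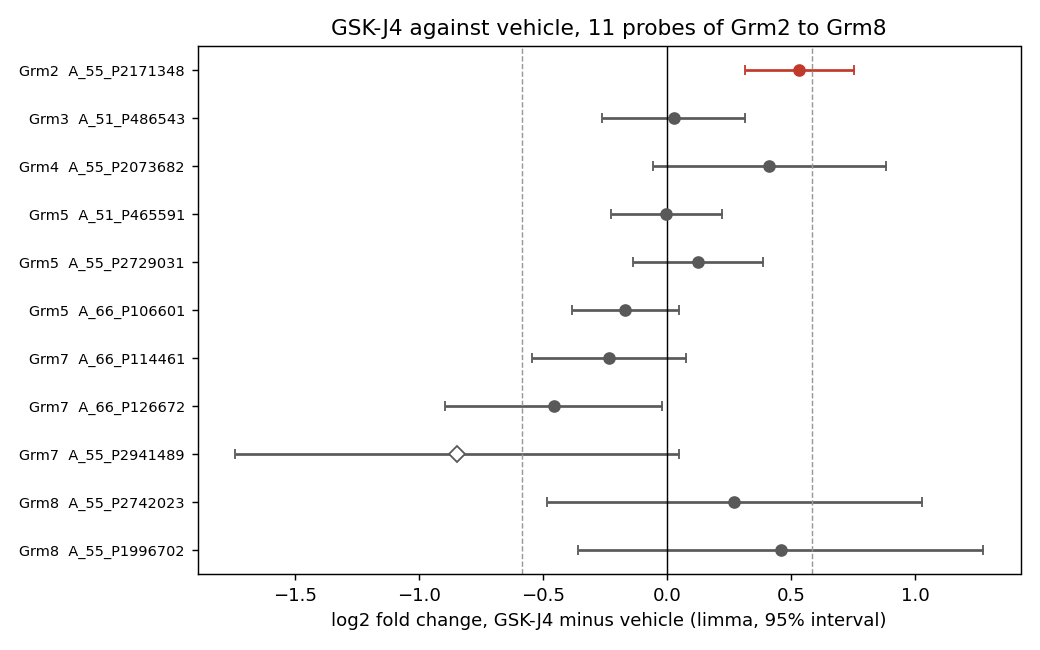
Difference of the mean log2 signal, GSK-J4 minus vehicle (horizontal axis), with its 95% interval from limma for each of the 11 kept probes (vertical axis), red where the adjusted p is 0.05 or less, and dashed lines at 1.5-fold. The open diamond is the Grm7 probe that was not well above background in GSK-J4, whose value is not to be read as a fold. The Grm2 interval lies above 0, and 5 of the 11 intervals lie wholly between the dashed lines.

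Set beside each other, the intervals show what these arrays could resolve. For 5 of the 11 probes, those of Grm3 and Grm5 and the brightest of Grm7, the 95% interval lay within 1.5-fold in both directions. For the other 6 it did not, among them both Grm8 probes, where the upper limit was 2.04-fold and 2.42-fold. These limits describe the deposited scaling.

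**Figure D4:**
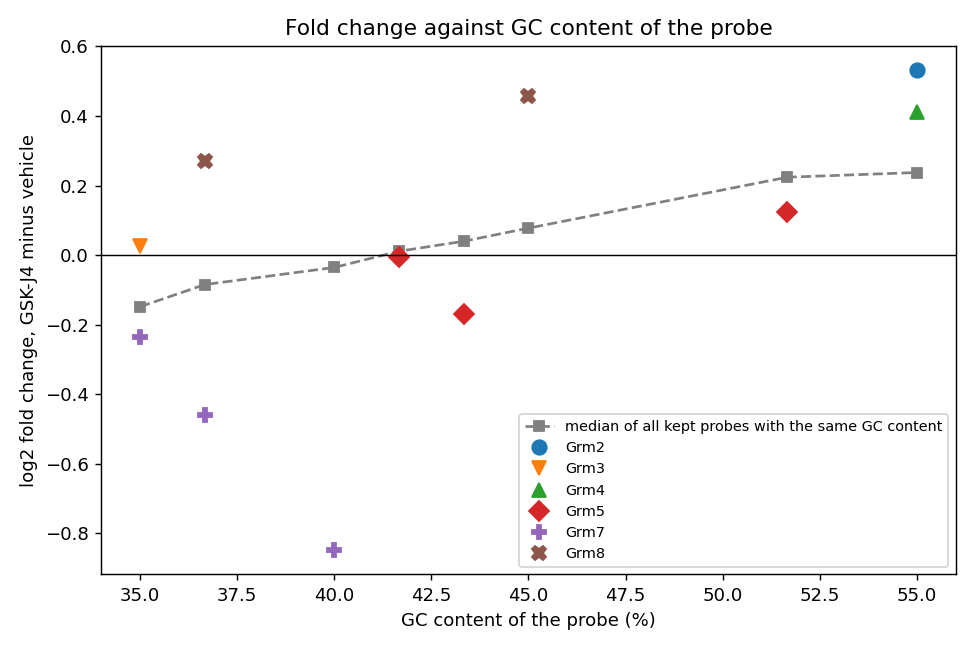
Log2 fold change, GSK-J4 minus vehicle (vertical axis), against the GC content of the probe in percent (horizontal axis) for the 11 kept receptor probes, with the median of all kept probes of the same GC content as grey squares. The medians run from -0.15 at 35% to 0.24 at 55%, and the Grm2 and Grm4 probes both lie at 55%.

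The 88 measured genes of 91 listed for the pathway around these receptors, each by its brightest kept probe, had a median difference of 0.05 (log2) against 0.04 over 22117 genes. With limma's adjusted p at 0.05 as the threshold, 5 of 88 (5.68%) rose and 5 (5.68%) fell, against 8.6% and 7.56% of all genes, and 2 of the 10 reached 1.5-fold. The adjusted p of the 10 ran from 0.016 to 0.0496, and without any 1 of the vehicle arrays 0 of 88 were called. Counts by any kept probe, given below for each list, can only grow with the number of probes of a gene. The matching share over all genes was not computed, so those counts cannot be set against these percentages.

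In the Gi/o and cAMP route used by groups II and III, 3 of 24 genes were lower and 0 higher by their brightest probe. By any kept probe, 3 had a probe called lower and 4 (Gnb1, Prkaca, Prkar1b and Kcnj9) a probe called higher. Kcnj6 and Kcnj3 encode subunits of the GIRK potassium channels that Gi/o-coupled receptors open. Kcnj6 gave 8.29, 8.04 and 8.13 in vehicle and 7.24, 7.49 and 7.24 in GSK-J4 and fell by 0.83 ± 0.11 (log2, SE, limma adjusted p = 0.016). The brightest Kcnj3 probe fell by 0.34 (limma adjusted p = 0.036), and its other kept probe had a difference of 0.22 (adjusted p = 0.59). Kcnj9, another subunit, had differences of 0.31, 0.61 and 0.74 on its 3 kept probes (limma adjusted p = 0.36, 0.0498 and 0.066). Gnai1, an inhibitory G protein alpha subunit, fell by 0.31 (limma adjusted p = 0.042).

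In the Gq and phospholipase C route of group I, 1 of 15 genes was higher and 1 lower, and by any kept probe 1 was higher and 5 lower. Gna11, a Gq-class alpha subunit, fell by 0.33 (limma adjusted p = 0.041), and Itpr3, an IP3 receptor of the endoplasmic reticulum, rose by 0.33 (limma adjusted p = 0.042). The probes of Gna11, Gnai1 and Kcnj3 that fell each had 35% GC, where the median over kept probes was -0.15 (log2). The brightest Shank2 probe, called higher, also had 35% GC.

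Among 22 measured scaffolds and binding partners, 2 were higher and 1 lower, and by any kept probe 5 had one called higher and 4 one called lower. Shank1 and Shank2, postsynaptic scaffolds linked to group I receptors through Homer, rose by 0.50 (limma adjusted p = 0.045) and 0.52 (limma adjusted p = 0.048) by their brightest probes. The brightest Shank3 probe had a difference of -0.32 (limma adjusted p = 0.11), and another Shank3 probe was higher by 0.89 (limma adjusted p = 0.026). Pick1, the PDZ protein that binds Grm7, gave 8.67, 8.73 and 8.80 in vehicle and 7.66, 8.07 and 8.34 in GSK-J4, groups that did not overlap, and fell by 0.71 (log2, limma adjusted p = 0.048) on its brightest probe, while its other kept probe had a difference of 0.26 (limma adjusted p = 0.11). Homer1, Homer2 and Homer3 had differences of -0.29, 0.05 and 0.03 and passed no adjusted test.

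Of the genes that supply or remove the ligand, 1 of 10 for glutamate release and uptake was higher and 0 lower by the brightest probe, and 1 and 2 by any kept probe. Slc1a6, a neuronal glutamate transporter, rose by 0.51 (limma adjusted p = 0.046), while Slc1a3, an astrocyte transporter, had a difference of 0.17 on its brightest probe (limma adjusted p = 0.22) and fell by 0.76 on the other (limma adjusted p = 0.014). Among 4 measured genes for NAAG, a dipeptide agonist of Grm3, 0 passed the limma test, the largest differences being 0.16 for the synthase Rimklb and -0.15 for the peptidase Folh1 (limma adjusted p = 0.32 and 0.49). Of 13 desensitisation genes 1 was higher and 0 lower (2 and 1 by any kept probe), the higher one being Arrb1, the beta-arrestin that uncouples receptors from G proteins, by 0.38 (limma adjusted p = 0.0496).

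The likeness of other genes to the receptors is given as Pearson's r over the 6 arrays, which share slides by group. For Grm2, the most alike of 20224 genes were Tmem198, Gm1943 and Inca1 (r of 0.999, 0.999 and 0.998), and 1202 genes had an r above 0.95. Kalrn and Nelfa were among the most like Grm3 (0.987 and 0.984), with 30 genes above 0.95. For Grm4 they were Zfp110, Tatdn1 and Arhgef7, with 178 above 0.95.

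By their brightest probes, Grm5 was most like Zfp407 and Fam175a (0.996 and 0.994, 60 genes above 0.95), Grm7 most like Camsap1 and Nsf (0.995 and 0.992, 82 genes) and Grm8 most like Cml5 and Tagap (0.995 for both, 102 genes). Over 6 arrays split by group, r also takes in the difference between the groups, and its part in these numbers was not tested.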

How the data were processed

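RNA of 6 mice (3 vehicle, 3 GSK-J4, grouped by the labels) was hybridised to one-colour Agilent arrays, and the authors extracted spot intensities with Agilent Feature Extraction 10.7.1.1 and deposited log2 values, quantile normalized in GeneSpring according to the methods. These log2 values were tested as deposited. The intensity files gave probe names, positions on mm9, flags and, for alternatives, the deposited intensities, without 140 control rows of the table.

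Probes well above background on all 3 arrays of a group were compared with limma 3.58.1 (lmFit, eBayes, R 4.3.3, two-sided, no covariate), with Benjamini-Hochberg adjustment over 34443 probes. P-values measure the spread between arrays of 1 mouse each. The number of arrays limits the precision. The exact permutation test enumerated 20 orders. Pathway genes named are those past the adjusted p of 0.05, at most 4 per list, or else the 2 largest differences, and a few relatives (Kcnj9, Shank3, Homer1 to Homer3, Slc1a3) and genes with another called probe were named after their values were seen. Members and lists were chosen with earlier results of these data known. The limma test was checked on simulated data with independent noise and without a slide effect or GC trend. That check does not cover those features of the arrays. Alternatives were 75th percentile scaling, quantile normalized intensities, normexp, other filters, a GC correction (lowess), a replicate block, 1 probe per gene, the methods' t-test and leaving out each array. A few listed genes are not reported here.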

Additional observations from a re-analysis of the deposited data

How the results depend on the processing

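The number of receptor probes called higher (1) was 0 with the GC correction, with the replicate block, with the replicate block and GC correction, and with the methods' t-test, and 0 to 1 with 1 array left out. Grm2 itself kept its direction in all 16 alternatives (0.28 to 0.59). By the methods' thresholds, 0 to 2 probes were higher and 0 to 2 lower with 1 array left out, and 1 was lower with 75th percentile scaling. Of the pathway genes (10), 22 were called with 75th percentile scaling, 6 with the GC correction, 2 without the filter on dim probes, 0 with the block, with or without the GC correction, 0 with the methods' t-test, and 0 to 5 with 1 array left out.

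Directions that reversed were all of probes that passed no test. Grm5 A_51_P465591 was 0.27 with 75th percentile scaling, 0.012 with the GC correction with or without the replicate block, and -0.068 to 0.053 with 1 array left out. Grm5 A_55_P2729031 was -0.11 with the GC correction, with or without the block. With 1 array left out, Grm3 ranged from -0.089 to 0.096 and Grm8 A_55_P2742023 from -0.047 to 0.53. The cause was not tested.

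The replicate numbers did not pair the arrays (correlations of deviations of 0.007, 0.026 and 0.081 for numbers 1, 2 and 3), and under the block limma called 0 of all probes by adjusted p (1630 higher and 2695 lower by fold and unadjusted p), Grm2 included (0.53, adjusted p = 0.088). Over all probes, 2889 higher and 2899 lower calls became 2 and 8 without vehicle array 1, 1 and 12 without vehicle array 2, and 1 and 4 without vehicle array 3. With 75th percentile scaling they were 5037 and 3637, with the GC correction 1677 and 1972, without the filter 1793 and 1972, and with the methods' t-test 56 and 37. Signal over background limits what can be read of dim probes, more so on the GSK-J4 slide.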
